A study of Rattus norvegicus with 140 samples.

Results

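The extracellular matrix and collagen genes measured here are 62 of the 29214 transcript IDs on the array. They are all IDs that the platform's annotation gives a single symbol of the form Col, number, a, number (43 IDs of 40 collagen genes), plus the IDs of 19 singly named matrix genes: Fn1, Postn, Sparc, Lamb1, Lamc1, Fbn1, Eln, Lum, Dcn, Bgn, Fmod, Timp1, Timp2, Timp3, Mmp2, Mmp14, Adamts1, Adamts4 and Tgfb1. A further gene on the list, Tnc, has no ID with a single symbol and was not analysed here. Col19a1, Col24a1 and Col4a2 have more than 1 ID, so the 62 IDs stand for 59 genes.

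Male Fischer 344 rats of about 2 to 3 months, each carrying an implanted telemetry transmitter, were heated in an incubator at 37 °C until the core temperature reached 41.8 °C, the point called TcMax. Heated rats were killed at TcMax, or after 24 h or 48 h of recovery at room conditions with free food and water. Control rats of the same 3 times carried the transmitter too and were kept unheated in their cages. The sources differ on whether they were first put briefly into the unheated incubator: the labels say so, and the study's methods say that they never were. Heart, liver, kidney and lung of the same rats were measured on Affymetrix Rat Gene 1.1 ST arrays, each organ being bulk tissue.

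Each group of heated or control rats had 6 arrays of an organ, except that heated hearts at TcMax, heated hearts at 48 h, heated lungs at 48 h, and heated and control livers at 48 h had 5. Values are linear intensities, differences are log2(intensity + 16), heated minus control of the same time, and ± is the standard error (SE) of the fit unless SD is named. The median intensity of an array was 37.6 to 50.9 for hearts, 37.2 to 47.0 for livers, 38.0 to 57.1 for kidneys and 55.2 to 70.4 for lungs, and precision is limited by how many arrays a group has. Summed markers of the organ's own cells fit the labels: 14054 to 42621 for cardiomyocyte genes in hearts against at most 2017 in the other organs, 19632 to 30738 for hepatocyte genes in livers (at most 9833 elsewhere), 11319 to 19881 for kidney tubule genes in kidneys (at most 1596 elsewhere) and 20317 to 31583 for lung epithelium genes in lungs (at most 1418 elsewhere). A heated heart array at 48 h, replicate 4, went against its label with 153 for the cardiomyocyte sum and 44255 for the lung epithelium sum, and it was left out unless named.

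The extracellular matrix is the meshwork of secreted proteins around cells. Fibrillar collagens such as types I, III and V form its tensile fibres, and type IV collagens with laminins form basement membranes. Fibronectin and periostin tie cells to the fibres, and SPARC is a collagen-binding protein. Matrix turnover is set by metalloproteinases (Mmp2, Mmp14), the ADAMTS proteases that cut proteoglycans, and their inhibitors, the TIMPs. In the heart, matrix is laid down mainly by fibroblasts, and fibrous tissue takes the place of lost muscle cells.

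In each organ the 14607 IDs with the larger SD over the arrays were tested. Of the 62 matrix IDs this took in 45 for heart, 49 for liver, 48 for kidney and 40 for lung. Every member was tested in at least 1 organ and 23 in all 4. A gene is said to have risen or fallen where limma gave a Benjamini-Hochberg adjusted p under 0.05 over all tested IDs, and the 2-fold calls also need a change of at least 2-fold. At TcMax a single member was called at 2-fold in each of 2 organs: Adamts1 rose more than 2-fold in heart, and Mmp14 fell 2.00-fold in liver. At 48 h, 10 of the 45 tested IDs rose at least 2-fold in heart, among them the chains of type I, III and V collagen, and no other 2-fold call was made in the 12 comparisons of organ and time.

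**Figure D1:**
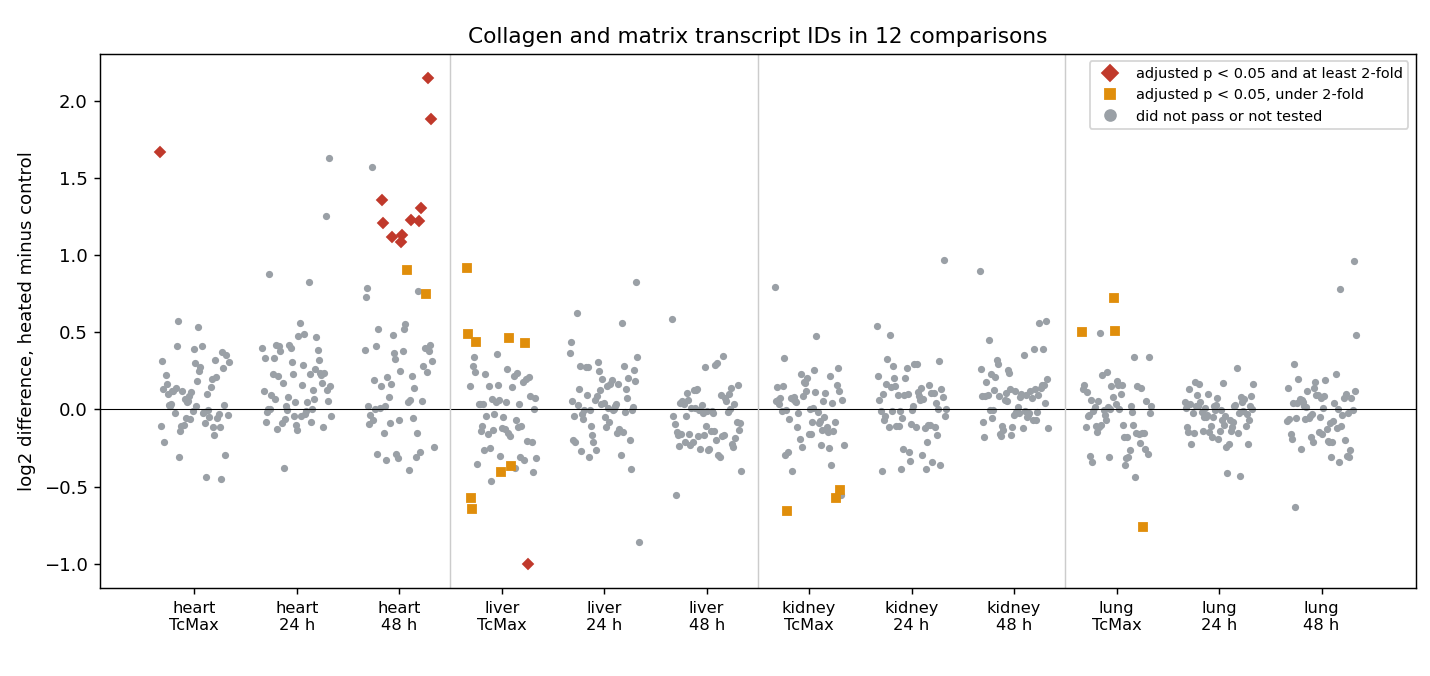
Difference of each of the 62 matrix IDs, heated minus control, in log2(intensity + 16), in the 12 comparisons of organ and time (columns). Red diamonds are IDs called at 2-fold and an adjusted p under 0.05, orange squares passed the adjusted p with a smaller change, and grey points are the others. The 10 red diamonds in heart at 48 h reach from 1.09 to 2.15.

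Adamts1, a secreted protease that cuts proteoglycans such as versican and aggrecan, responded at TcMax. In heart its ID (ID10752839) read 1044, 564, 984, 663 and 967 in the 5 heated rats, against 192 at the lowest, 256 at the median and 286 at the highest of 6 controls. Every heated heart lay above every control, a pattern that 416 of all 14607 tested IDs showed. The difference was 1.67 ± 0.17 (3.18-fold, 95% interval 1.32 to 2.02, adjusted p = 4.01e-09 by limma; exact permutation p = 0.00216, 2-sided, the smallest these groups can give). It was the only member called at 2-fold in heart at TcMax, where 2.02% of all tested IDs were called in either direction and 1.64% were called as higher (3.94% with no fold minimum, against the same 1 member). Unadjusted p was under 0.05 for 2 of 45 tested members there, and for 2294 of all 14607 tested IDs.

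The sequence just before the start of Adamts1 is shown because this was the most significant response of any member. It is the stretch of 120 bases just before the gene's first base, on the minus strand of chromosome 11 (chr11:38427385-38427504, RefSeq, GRCr8), read 5′ to 3′, with a CCAAT and a TATAAA in capitals.
Adamts1: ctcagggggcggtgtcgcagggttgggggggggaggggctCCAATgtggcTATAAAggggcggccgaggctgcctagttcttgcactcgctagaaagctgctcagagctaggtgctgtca
Promoter windows of 300 bases, 250 before and 50 after a gene's start, were at hand for 46 of the 59 genes. TATAAA on either strand was in 6 of the 46 (Adamts1, Col10a1, Col13a1, Col17a1, Col1a2, Postn) and in 14.2% of all 33469 windows. CCAAT was in 13 of the 46 and in 37.5% of all windows. The AP-1 motif TGANTCA was in 1 of the 46, Col6a1, and in 7.33% of all. A heat shock element, taken as GAA, NN, TTC, NN, GAA on either strand, was in 0 of the 46 and in 0.798% of all. Motifs were searched on both strands. These are matches of letters only, and the Adamts1 window held neither of the last 2 motifs.

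Adamts1 rose in liver and lung as well, by less than 2-fold. In liver the heated rats read 195, 241 and 369 (lowest, median, highest), against 83.3, 116 and 242 in controls, a difference of 0.92 ± 0.20 (adjusted p = 0.000452). In lung the heated rats read 249, 273 and 373, against 155, 188 and 271 in controls, a difference of 0.50 ± 0.15 (adjusted p = 0.0108). The groups overlapped in both organs. In kidney the values were 151, 279 and 375 in heated rats and 92.6, 148 and 184 in controls, and the difference of 0.79 ± 0.30 did not pass (adjusted p = 0.0891). It passed in a fit of only those 2 groups (0.0137) and with array weights (0.00820). The response in heart was larger than that in lung by 1.13 ± 0.22 (adjusted p = 0.00224 in limma on the organs of the same rats), while its excess over liver (0.70 ± 0.25, adjusted p = 0.107) and over kidney (0.83 ± 0.30, adjusted p = 0.209) did not pass. The share of all tested IDs whose response differed at TcMax was 2.16% between heart and lung, 5.85% between heart and liver and 1.35% between heart and kidney. In recovery the heart difference of Adamts1 was 0.40 ± 0.16 at 24 h and 0.39 ± 0.17 at 48 h, neither of which passed. The drop relative to TcMax was 1.27 (SE 0.24, adjusted p = 0.000698) at 24 h and 1.28 (SE 0.24, adjusted p = 0.000825) at 48 h, with 3.3% and 7% of all tested IDs differing between those times.

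Mmp14, a membrane-bound metalloproteinase that cuts collagen and activates Mmp2, was lower at TcMax. In liver the heated rats read 99.2, 152 and 217 (lowest, median, highest), against 236, 340 and 373 in controls, with no overlap. The difference was -1.0 ± 0.16 (2.00-fold, adjusted p = 3.98e-06, exact permutation p = 0.00216). It sat at the edge of the 2-fold limit: the change was under 2-fold in 7 of the 12 fits that left out 1 array (-1.09 to -0.89), with an adjusted p of at most 2.60e-05. This was the only member called in liver at TcMax, where 4.08% of all tested IDs were called and 1.63% were called as lower. Heated arrays at TcMax lay entirely below the controls for 1309 of all 14607 tested IDs in liver and for 995 in lung. In lung the heated rats read 90.4, 117 and 146, against 173, 202 and 250 in controls, again apart, with a difference of -0.76 ± 0.15 (adjusted p = 0.000174, exact permutation p = 0.00216). In kidney the values were 36.7, 47.6 and 81.8 in heated rats and 58.5, 83.7 and 110 in controls (-0.58 ± 0.15, adjusted p = 0.00897), and the groups overlapped. In heart they were 57.2, 74.8 and 94.5 in heated rats and 60.2, 115 and 161 in controls, and the difference of -0.45 ± 0.23 did not pass (adjusted p = 0.324). No pair of organs differed in the Mmp14 response (adjusted p of at least 0.255 in 6 pairs). The summed intensity of 8 macrophage markers, all 8 of them measured, was 2328, 2963 and 3375 (lowest, median, highest) in heated livers and 2913, 3609 and 5344 in control livers. It was 551, 653 and 1041 in heated kidneys against 502, 1143 and 1355 in controls, and 3120, 4329 and 6086 in heated lungs against 3365, 4331 and 6992 in controls. The lung sum was mostly Lgals3 and Gpnmb, which averaged 1440 and 1401 over the lungs used. Of the macrophage genes, Cd14 (-0.65), Adgre1 (-0.45) and Itgam (-0.48) fell in lung at TcMax, and Cd14 (-0.78) and Csf1r (-0.54) fell in kidney. No macrophage gene passed in liver at TcMax. Of the fibroblast and myofibroblast markers, Pdgfrb (-0.79) and Tcf21 (-0.71) fell in liver at TcMax, while Thy1 (0.38) rose there. Pdgfrb (-0.62) also fell in lung, and Tcf21 (-0.61) in kidney. What part these cell types had in the Mmp14 result was not tested. In bulk tissue, fewer cells of a type and less RNA per cell cannot be told apart.

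**Figure D2:**
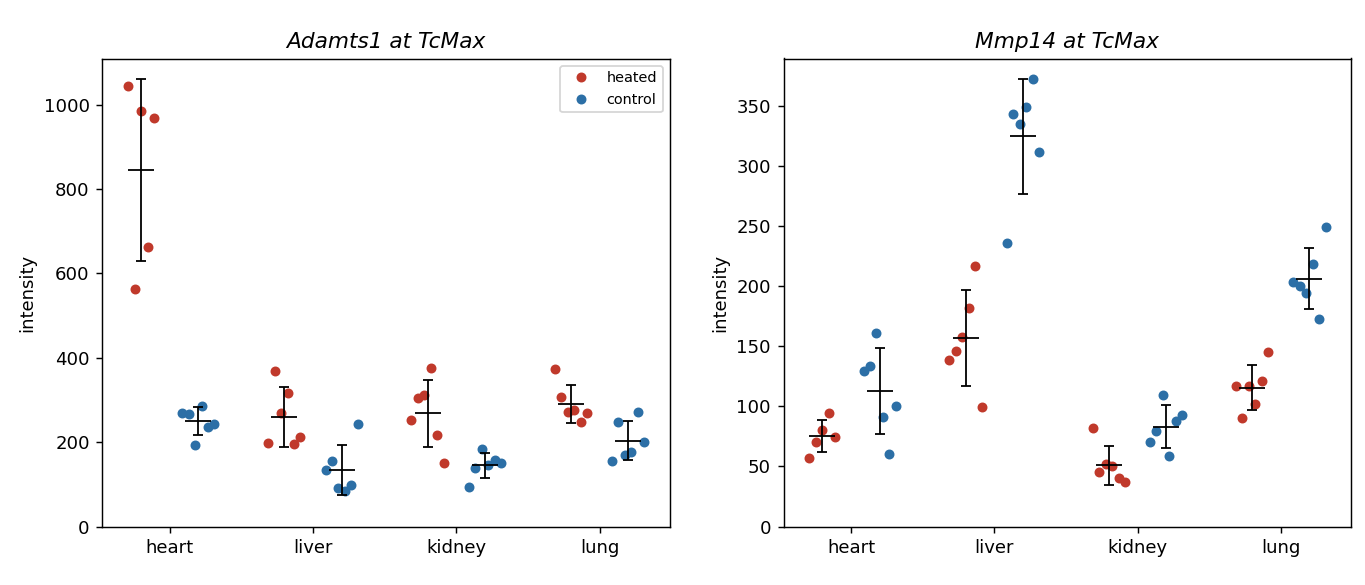
Intensity of Adamts1 and Mmp14 at TcMax in each rat, heated left of control in each organ, with mean and SD. Adamts1 is apart between the groups in heart (564 to 1044 in heated rats, 192 to 286 in controls), and Mmp14 is apart in liver and lung.

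Beyond these, liver at TcMax held small changes in both directions. With no fold minimum 5 of 49 tested members rose and 5 fell there, at shares of all tested IDs of 11.5% and 19.4%. Besides Adamts1, Adamts4 (another proteoglycan protease, 0.49 ± 0.19, adjusted p = 0.0458), Col6a3 (a chain of the beaded microfilaments, 0.46 ± 0.17, 0.0297), Col14a1 (a collagen attached to the surface of fibrils, 0.44 ± 0.17, 0.0448) and Lamb1 (a laminin chain, 0.43 ± 0.14, 0.0152) rose. Besides Mmp14, Col11a1 (a fibrillar chain, -0.65 ± 0.21, 0.0185), Col10a1 (-0.58 ± 0.22, 0.0423), Col4a5 (-0.40 ± 0.15, 0.0332) and Col6a6 (-0.37 ± 0.13, 0.0338) fell. In all of these 8 the heated and control livers overlapped. Adamts4, Col14a1 and Col10a1 were not firm: they failed with all IDs tested (adjusted p of 0.0634, 0.0580 and 0.0629) and in 9, 9 and 8 of the 12 fits that left out 1 array. Several were dim, since Col10a1 read 2.71 to 45.4 in heated livers and 12.8 to 43.6 in controls. The median of all 62 members was -0.01 against -0.04 over all IDs. The share of members that moved is no larger than that of all genes.

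Kidney at TcMax held 3 members that fell, 0 that rose and 0 past 2-fold. With no fold minimum 5.93% of all tested IDs were lower in heated kidneys, and 1.83% were called at 2-fold in either direction. Besides Mmp14 these were Col17a1 and Tgfb1. Col17a1, a transmembrane collagen of hemidesmosomes, read 56.4, 85.2 and 104 (lowest, median, highest) in heated kidneys, against 102, 140 and 189 in controls, which overlapped narrowly. The difference was -0.66 ± 0.16 (adjusted p = 0.00339, exact permutation p = 0.00433). At 24 h it was 103, 132 and 206 in heated kidneys and 74.3, 93.6 and 119 in controls, a difference of 0.48 that did not pass (adjusted p = 0.664). The difference between these 2 responses was 1.14 ± 0.22 (adjusted p = 0.000881), at a time step where 6.38% of tested IDs differed (5.76% for 48 h against TcMax). Tgfb1, the growth factor that drives collagen synthesis in fibroblasts, read 99, 121 and 158 in heated kidneys, against 98.2, 212 and 238 in controls (-0.52 ± 0.14, adjusted p = 0.0114). That call was lost in a fit of only those 2 groups (adjusted p = 0.0822).

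In lung at TcMax the type IV chains Col4a3 and Col4a4 rose. Both encode chains of the network found in the basement membrane of alveoli and glomeruli. Col4a3 read 221, 300 and 355 in heated lungs (lowest, median, highest), against 138, 176 and 200 in controls, with no overlap (0.72 ± 0.11, 1.65-fold, adjusted p = 5.77e-06). Col4a4 read 343, 400 and 549 in heated lungs, against 229, 275 and 334 in controls, also apart (0.51 ± 0.13, 1.42-fold, adjusted p = 0.00323). The exact permutation p was 0.00216 for each. Neither reached 2-fold. With Adamts1, 3 of 40 tested members rose and 1, Mmp14, fell, against 9.97% and 12% of all tested IDs, and 2.4% of tested IDs were called at 2-fold. The lung epithelium sum was 27716 to 31583 in heated lungs against 27287 to 31259 in controls.

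Col4a3 and Col4a4 are neighbours that point away from each other on chromosome 9, with 412 bases between their starts, and their promoter windows share 88 bases. That stretch (chr9:91323740-91323827, plus strand, RefSeq, GRCr8) is shown because both windows hold it, and its part in the lung rise was not tested. It holds neither TATAAA nor CCAAT, so nothing is in capitals.
Col4a3 and Col4a4: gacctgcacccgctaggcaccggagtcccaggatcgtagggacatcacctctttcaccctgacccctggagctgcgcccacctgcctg
The lung response of Col4a3 was larger than that in liver by 0.66 (adjusted p = 0.0298) and that in kidney by 0.60 (adjusted p = 0.0496), and that of Col4a4 was larger than in liver by 0.81 (adjusted p = 0.0395). The same test found a response of Lamb1 that was higher in liver than in lung by 0.65 (adjusted p = 0.0343). Col4a3 was dim in liver, where it averaged 20.6, against 181 in lung and 355 in kidney. Of all tested IDs, 8.67% differed between liver and lung and 3.02% between kidney and lung. In recovery the differences were 0.03 and -0.15 for Col4a3 and 0.07 and -0.05 for Col4a4 at 24 h and 48 h. For Col4a3 the step down relative to TcMax was 0.69 at 24 h (adjusted p = 0.00254) and 0.87 at 48 h (adjusted p = 0.000256). For Col4a4 it was 0.43 at 24 h (adjusted p = 0.140) and 0.55 at 48 h (adjusted p = 0.0477). In lung 11.7% and 12.3% of all tested IDs differed at these steps. The other type IV chains in lung at TcMax lay between 0.00 and 0.18. Among them are Col4a1 and Col4a2, which also point away from each other, with 76 bases between their starts.

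**Figure D3:**
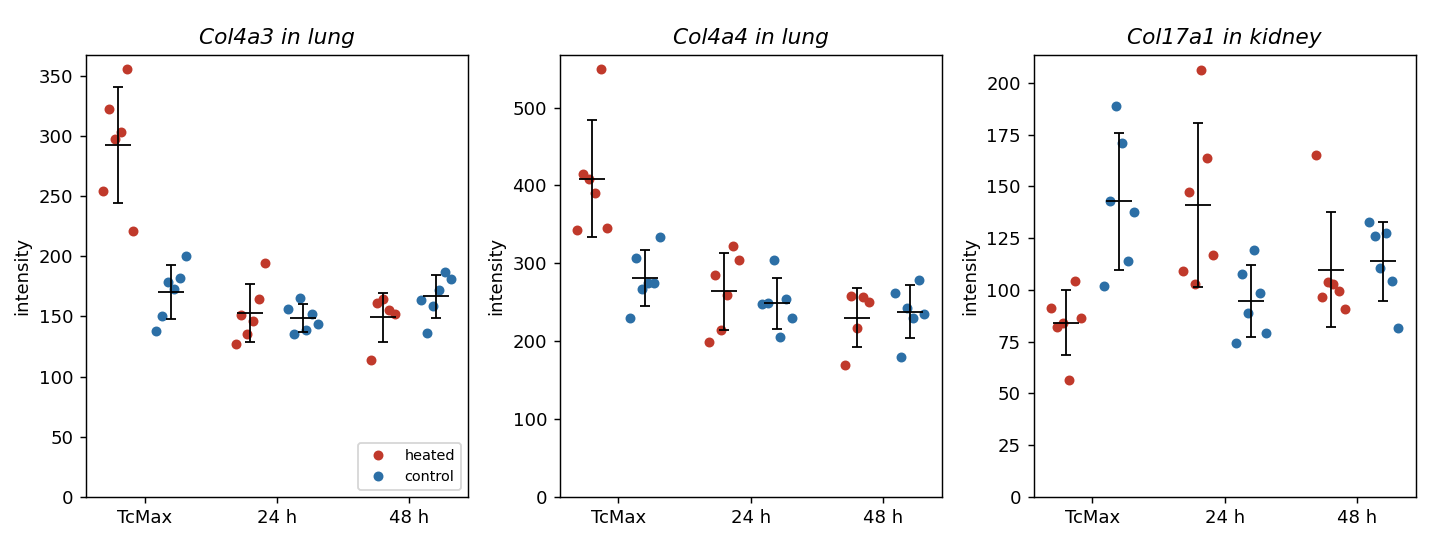
Mean intensity with SD over TcMax, 24 h and 48 h of Col4a3 and Col4a4 in lung and Col17a1 in kidney, heated and control rats. Col4a3 averages 292 in heated lungs at TcMax against 170 in controls, while Col17a1 is below the controls at TcMax and above them at 24 h.

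At 24 h no member passed in any organ, at either threshold. Of all tested IDs limma called 0.0479% at 2-fold in heart, with 0.24% for liver, 0.00685% for kidney and 0% for lung. Unadjusted p was under 0.05 for 8 of 45 tested members in heart (717 of all 14607 tested IDs), 7 of 49 for liver (2058 of all), 6 of 48 for kidney (1001 of all) and 1 of 40 for lung (320 of all). In heart 46 of the 62 members were higher in heated rats, with a median of 0.15 against 0.01 over all IDs. The heated hearts lay entirely above the controls for 4 tested members (Timp1, Col8a1, Col6a3 and Col4a1), a pattern that 1.01% of all tested IDs showed. Timp1, the inducible inhibitor of metalloproteinases, read 329, 444 and 872 in heated hearts (lowest, median, highest), against 88.4, 162 and 214 in controls. Its difference of 1.63 ± 0.45 had an adjusted p of 0.303 and an exact permutation p of 0.00216. It passed in a fit of only those 2 groups (adjusted p = 0.0139) and with array weights (0.00176). Col8a1, a short-chain network collagen, read 300, 434 and 692 in heated hearts, against 203, 237 and 280 in controls, a difference of 0.82 (adjusted p = 0.727). Postn read 189, 435 and 719 in heated hearts, against 70.8, 178 and 299 in controls, a difference of 1.25 (adjusted p = 0.788). In liver at 24 h Timp1 read 120, 156 and 820 in heated rats, against 95.6, 105 and 113 in controls, and the groups were apart, with the highest heated liver far above the rest (0.82 ± 0.27, adjusted p = 0.128). That liver, replicate 5, was also the highest heated one for Col12a1 (320, against 24.4 to 61.7 in controls), Col4a1 (417, against 111 to 177) and Lamc1 (286, against 126 to 157). It was not for Col3a1 (368, against 265 to 491) or Col11a1 (35.2, against 40.2 to 85.2). Heated livers lay entirely above the controls for 77 of all 14607 tested IDs. Timp3, an inhibitor bound to the matrix, was at 85.0 to 180 in heated livers and 122 to 349 in controls (-0.86 ± 0.25, adjusted p = 0.0731).

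In heart at 48 h, 10 of 45 tested members rose at least 2-fold and 0 fell. The background there was 2.08% of all tested IDs, or 1.7% for rises alone. With no fold minimum 12 rose (Col6a3 and Mmp14 in addition), at a background of 4.01%. Over all 62 members 46 were higher in heated hearts, with a median of 0.25 against 0.01 over all IDs. The rise was uneven among the rats. In each of the 10 genes heated replicates 2, 3 and 5 lay above all 6 controls, and replicate 3 was the highest. Replicate 6 lay above all controls in 1 gene and replicate 1 in 0, so the groups overlapped in every gene.

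Postn encodes periostin, a matricellular protein that activated fibroblasts secrete. Its intensities in heated replicates 1, 2, 3, 5 and 6 were 144, 777, 2383, 2268 and 371, against 79.1, 137 and 425 (lowest, median, highest) in controls. The difference was 2.15 ± 0.50 (4.43-fold, adjusted p = 0.0138, exact permutation p = 0.0238). Timp1 read 179, 576, 2928, 2320 and 265 in the same order of heated rats, against 132, 172 and 313 in controls, a difference of 1.89 ± 0.47 (3.69-fold, adjusted p = 0.0187, exact permutation p = 0.0195). In both genes heated replicates 3 and 5 were far above the others. Fn1, which encodes fibronectin, read 384, 679, 3963, 2853 and 379 in heated rats, against 294, 418 and 560 in controls. Its difference of 1.30 ± 0.40 was the least firm of the 10 (2.47-fold, adjusted p = 0.0490, exact permutation p = 0.0606), and it failed in 8 of 11 other settings, for example with all IDs tested (adjusted p = 0.0825).

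The fibrillar chains that rose were those of types I, III and V, the fibre-forming collagens of the heart. Col1a1 read 315, 710, 3055, 1472 and 378 in heated replicates 1, 2, 3, 5 and 6, against 214, 309 and 475 in controls (1.36 ± 0.37, 2.57-fold, adjusted p = 0.0271). Its partner in the type I trimer, Col1a2, read 338, 668, 2701, 1406 and 405 in heated rats, against 225, 322 and 565 in controls (1.21 ± 0.33, adjusted p = 0.0289). Both had the same order of the 5 heated rats. Col3a1 read 594, 1229, 3024, 2220 and 800 in heated rats, against 394, 604 and 849 in controls (1.12 ± 0.28, adjusted p = 0.0195). Col5a2, a chain of type V collagen, which regulates fibril diameter, read 229, 437, 1445, 957 and 279 in heated rats, against 184, 229 and 293 in controls (1.13 ± 0.28, adjusted p = 0.0174). Its partner Col5a1 read 409, 856, 2147, 1500 and 495 in heated rats, against 299, 426 and 531 in controls (1.09 ± 0.27, adjusted p = 0.0174). Of the 11 tested fibrillar IDs these 5 rose and 6 did not pass, with values between -0.33 (1 ID of Col24a1) and 0.38 (Col5a3). The cartilage collagen Col2a1 was at 0.16 (adjusted p = 0.665). The median over all 12 fibrillar IDs was 0.27. Col1a1 and Col1a2 lost their calls with all IDs tested (adjusted p of 0.0506 and 0.0531), an offset of 1 (0.0507 and 0.0537) and ordinary variances (0.0512 and 0.0533).

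Outside the fibrillar class, Col8a1 read 223, 603, 1171, 1061 and 411 in heated replicates 1, 2, 3, 5 and 6, against 128, 259 and 335 in controls (1.23 ± 0.31, adjusted p = 0.0213). It was the 1 of 4 network and anchoring collagens that rose. Fbn1, which encodes fibrillin of the microfibrils that carry elastin, read 499, 1225, 3012, 2183 and 640 in heated rats, against 368, 502 and 709 in controls (1.22 ± 0.29, adjusted p = 0.0150). Eln, which encodes elastin itself, was at 0.77 ± 0.40 (adjusted p = 0.255). Of the type VI and related chains Col6a3 rose by 0.91 ± 0.24 (adjusted p = 0.0244), while Col6a1 (0.52, adjusted p = 0.0831) and Col6a2 (0.55, adjusted p = 0.0699) did not pass. The other 3 IDs of that class lay between -0.39 (Col6a6) and 0.05 (Col6a4). Col12a1, a collagen on the fibril surface, had the largest difference that did not pass, 1.57 ± 0.57 (adjusted p = 0.0866), with 49.2 to 1573 in heated hearts and 23.6 to 258 in controls. The other 7 IDs of its class lay between -0.31 (Col9a3) and 0.41 (Col16a1), and none passed. No basement membrane collagen passed: Col4a1 was at 0.48 (adjusted p = 0.0674), an ID of Col4a2 at 0.37 with all 5 heated hearts (309 to 410) above the controls (236 to 306, adjusted p = 0.228), and Col4a3 at -0.29. Heated hearts lay entirely above the controls for 51 of all 14607 tested IDs. The laminin chains Lamb1 (0.05) and Lamc1 (0.28) and Sparc (0.38), a collagen-binding protein, were not tested in heart. None of the transmembrane, multiplexin and other collagens passed, with values from -0.29 to 0.52.

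Of the enzymes and inhibitors in heart at 48 h, Timp1 and Mmp14 (0.75 ± 0.23, adjusted p = 0.0442) were the 2 of 7 tested that rose, and Mmp14 lost its call without any 1 of the 6 controls (adjusted p of 0.0502 to 0.0949). Adamts4 (0.73, adjusted p = 0.0844), Tgfb1 (0.42, adjusted p = 0.239), Adamts1 (0.39), Mmp2 (0.24) and Timp3 (-0.24) did not pass, and Timp2 (0.32) was not tested. The small leucine-rich proteoglycans, which coat collagen fibrils, did not pass either. Bgn (biglycan) was at 0.79 ± 0.28 (adjusted p = 0.0755), Lum (lumican) at 0.40 and Fmod (fibromodulin) at -0.28. Dcn (decorin) was not tested, and its heated hearts (4596 to 4907) all lay below the controls (4978 to 5549), a difference of -0.15. Among all 14607 tested IDs, 83 had all heated hearts below the controls.

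**Figure D4:**
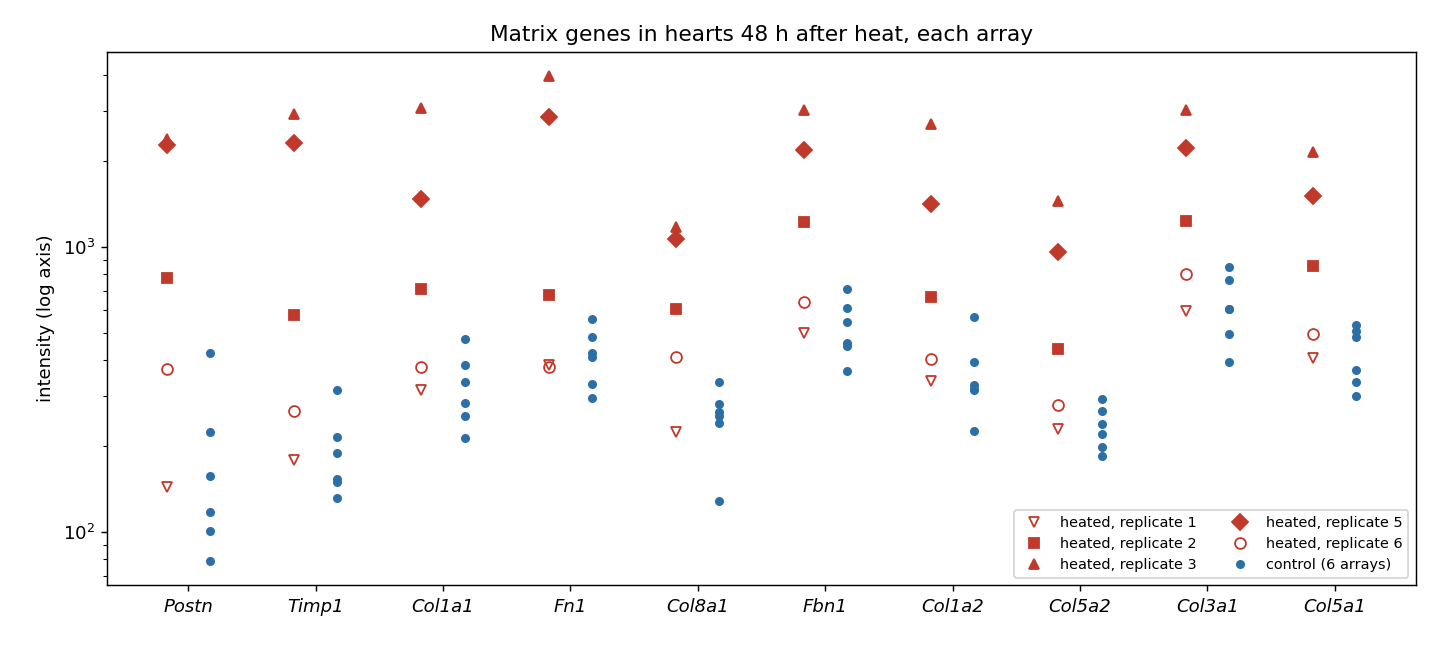
Intensity on a log axis of the 10 members called in heart at 48 h, the 5 heated rats (1 symbol each) left of the 6 controls. Replicates 2, 3 and 5 lie above the controls in all 10 genes, and replicates 1 and 6 lie among them in nearly all.

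The 10 calls rest on a few animals. They fell to 0 without heated replicate 3 or without heated replicate 5 (Postn adjusted p of 0.133 and 0.132), to 5 without control replicate 4, and to 0 in a fit of only the 2 groups (adjusted p = 0.390 for each) or with array weights, where the Postn difference was 1.31 (adjusted p = 0.330). With the left-out array kept there were 10 calls, 8 of them shared. Marker sums moved with the same rats. In heated replicates 1, 2, 3, 5 and 6 the sum of the 8 cardiomyocyte genes, all 8 measured, was 37128, 36970, 14054, 24186 and 35671, against 35537 to 38179 in controls. The sum of the 8 macrophage genes was 1660, 3294, 10365, 12720 and 1746 in heated rats, against 1383 to 2130 in controls. The sum of the 7 fibroblast and myofibroblast genes measured, of 8, was 4787, 6603, 11231, 8218 and 5576 in heated rats, against 4733 to 6510 in controls. The sum of the 4 cell cycle genes measured, of 5, was 188, 809, 2593, 1952 and 459 in heated rats, against 153 to 338 in controls. The sum of the 5 neutrophil genes was 120, 89.5, 416, 311 and 62.7 in heated rats, against 65.5 to 138 in controls. Replicates 3 and 5, with the highest collagen values, had the lowest cardiomyocyte and the highest macrophage, fibroblast, cell cycle and neutrophil sums. The fibroblast sum was mostly Vim, which averaged 3273 over the hearts used, against 945 for Pdgfra and 617 for Pdgfrb. Of the fibroblast genes only Thy1 passed in heart at 48 h (1.23 ± 0.28, adjusted p = 0.0131 by limma). The endothelium sum (2 of 4 genes measured) was 2462, 2404, 1427, 1498 and 2231 in heated rats, against 2071 to 2701 in controls, so replicates 3 and 5 were low. The mesothelium sum (all 4 measured) was 249, 399, 630, 370 and 227 in heated rats, against 161 to 331 in controls, and the smooth muscle sum (all 3) was 3625, 4495, 6940, 5073 and 3481 in heated rats, against 3416 to 4053 in controls. In both, replicates 2, 3 and 5 lay above all controls. The smooth muscle sum was mostly Des, which averaged 3139 over the hearts used, against 465 for Myh11 and 141 for Cnn1. It is therefore not a measure of smooth muscle cells alone. The kidney tubule sum (all 6) was 951 in heated replicate 2, 39.7 to 178 in the other heated hearts and 30.4 to 164 in controls. None of the cardiomyocyte, macrophage, fibroblast, cell cycle and neutrophil genes was at 0 in any of the hearts used. The hepatocyte sum was 2763, 4348, 73.9, 170 and 241 in heated replicates 1, 2, 3, 5 and 6. It was 7237 in control replicate 4 and 200 to 2083 in the other controls. The part of these markers in the result was not tested.

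The same 10 genes were followed in the other organs of these rats. They were picked because they were called in these hearts, so a higher median in heart is partly set by that choice. Some were dim elsewhere: Postn averaged 22.4 in kidney and 27.9 in liver, and Col8a1 averaged 20.2 in kidney and 31.1 in liver. The median of the 10 genes relative to the control mean was -0.03, 1.08, 2.74, 2.06 and 0.29 in the hearts of replicates 1, 2, 3, 5 and 6. In the kidneys of the same rats it was 0.31, 0.60, 0.25, 0.03 and -0.35, in their livers -0.44, -0.06, 0.06, -0.04 and -0.19, and in their lungs -0.32, -0.10, 0.09, 0.24 and 0.25. No member's response at 48 h passed a test of the difference between heart and another organ. Those tests used rats with an array of both organs: 5 heated rats in each, with 4 controls for liver, 5 for lung and 6 for kidney. The Postn difference was 2.33 against lung (adjusted p = 0.0688), 1.95 against liver (0.171) and 1.69 against kidney (0.191), and that of Timp1 was 2.03 against liver (0.114), 1.54 against kidney (0.168) and 0.78 against lung (0.563). These tests passed for 0.32%, 0.0153% and 0.00519% of all tested IDs for heart against lung, liver and kidney. Over time in heart, the response at 48 h exceeded that at TcMax for Col8a1 (by 1.67 ± 0.44, adjusted p = 0.0176), Fbn1 (1.38 ± 0.41, 0.0338) and Mmp14 (1.20 ± 0.32, 0.0168), 3 of 45 tested members. With Adamts1, which was lower, 4 of 45 differed, at a share of 7% of all tested IDs. No member differed between 48 h and 24 h, as 0% of all tested IDs did.

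**Figure D5:**
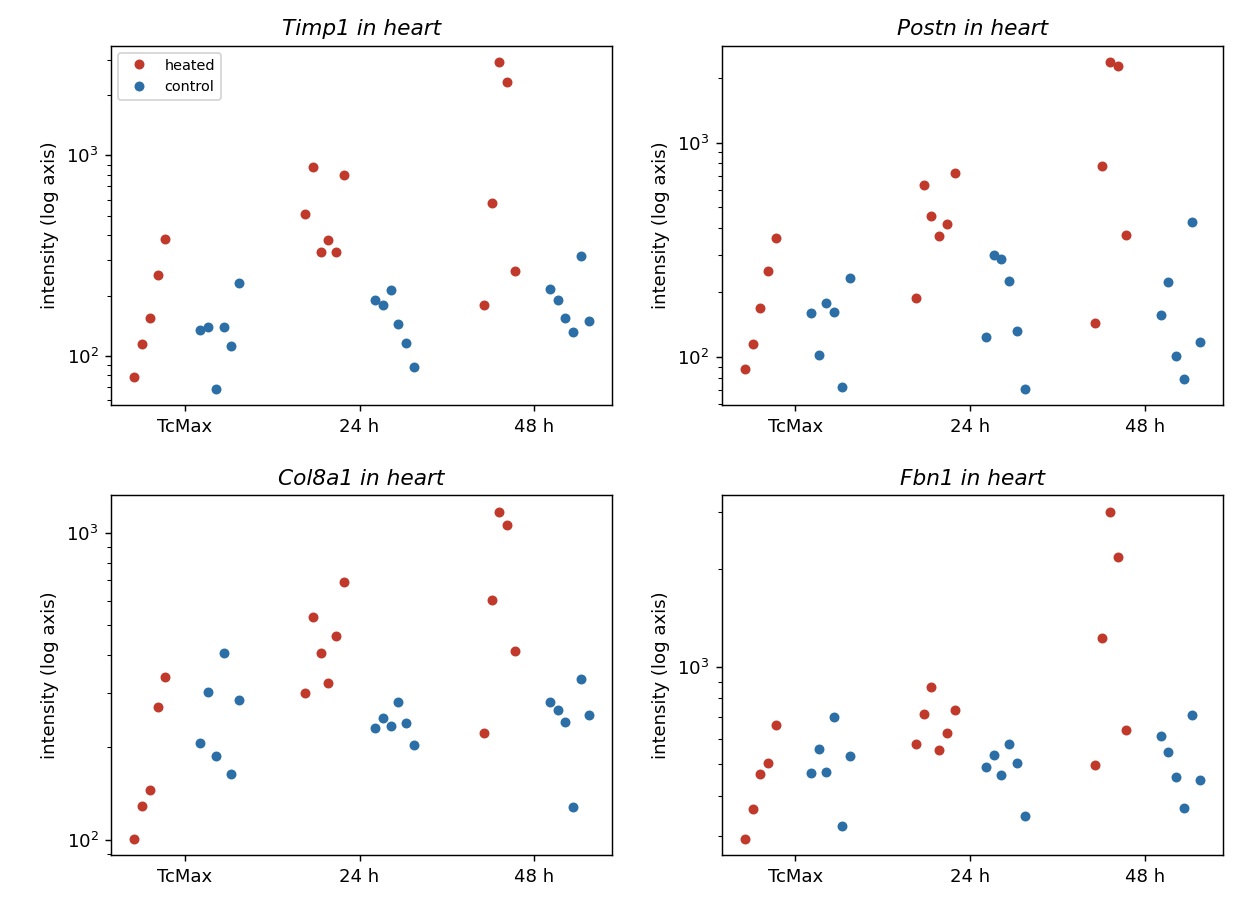
Intensity on a log axis of Timp1, Postn, Col8a1 and Fbn1 in each heart at TcMax, 24 h and 48 h, heated left of control at each time. Heated hearts at 24 h lie above all controls for Timp1 (329 to 872) and Col8a1 (300 to 692), and at 48 h they spread widely, from 179 to 2928 for Timp1.

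In the other organs no member passed at 48 h. By limma 0.0274% of all tested IDs were called at 2-fold in liver, with 0.0137% for kidney and 0% for lung. Unadjusted p was under 0.05 for 2 of 49 tested members in liver (1305 of all 14607 tested IDs), 1 of 48 for kidney (736 of all) and 5 of 40 for lung (955 of all). Single animals were high in some groups. Adamts1 in kidney at 48 h read 86.0, 184 and 856 (lowest, median, highest) in heated rats, against 101, 115 and 133 in controls (0.90 ± 0.30, adjusted p = 0.554). Timp1 in lung read 589, 1692 and 2852 in heated rats, against 428, 671 and 1559 in controls (0.96 ± 0.33, adjusted p = 0.570). For Mmp14 the response at 48 h was higher than at TcMax in liver (by 0.76, adjusted p = 0.0188), kidney (0.71, 0.0448) and lung (0.74, 0.0201), and at 24 h it was higher in liver (0.62, 0.0457) and lung (0.65, 0.0387). In liver 19.2% and 17.7% of all tested IDs differed from TcMax at 24 h and 48 h. Col10a1 (0.92, adjusted p = 0.0489) and Col4a5 (0.87, 0.0404) had a higher response in heart than in liver at TcMax, and Col17a1 (0.83, 0.0334) had a higher one in heart than in kidney. Col17a1 was dim in heart, where it averaged 29.0 (114 in kidney) and was not tested within the organ. Col10a1 averaged 21.1 in heart and 23.3 in liver, and Col4a5 averaged 26.5 in liver.

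Genes outside the 62 that fold collagen were called at TcMax in each organ, and genes that cross-link it were called in heart at 48 h. Of 12 collagen folding genes, all tested in heart, 2 rose at least 2-fold at TcMax: P4ha1, a subunit of the prolyl hydroxylase that stabilises the triple helix (2.31 ± 0.20), and Serpinh1, the heat shock chaperone of collagen (1.77 ± 0.20). At TcMax the same list had 3 called of 10 tested for liver, 4 of 9 for kidney and 5 of 10 for lung, with P4ha1 at 2.80, 2.46 and 2.13 and Serpinh1 at 2.11, 2.58 and 1.78 in liver, kidney and lung. The shares of all tested IDs called at 2-fold at TcMax were 2.02% for heart, 4.08% for liver, 1.83% for kidney and 2.4% for lung, and for heart at 48 h the share was 2.08%. In heart at 48 h the genes of this list that passed 2-fold were Plod2, a lysyl hydroxylase (1.51 ± 0.36), and Pcolce, an enhancer of procollagen processing (1.04 ± 0.28). Of 17 tested genes for elastic fibres and cross-linking, 3 were called in heart at 48 h and 0 at TcMax, all 3 of them lysyl oxidases (Lox 1.71 ± 0.46, Loxl2 1.07 ± 0.24, Loxl1 1.0 ± 0.26). Among 12 tested matricellular genes outside the 62, Ccn1 (3.67 ± 0.25) and Ccn2 (2.85 ± 0.36) were called in heart at TcMax, and Ccn2 (1.24 ± 0.36) and Vcan (1.25 ± 0.36), the proteoglycan versican, at 48 h. Ccn1 was also called in liver (2.90), kidney (3.25) and lung (2.06) at TcMax, and Ccn2 in liver (1.24) and kidney (2.06). Of 16 other proteases tested, Mmp12 (2.15 ± 0.46), Adam12 (2.08 ± 0.49) and Adam8 (1.49 ± 0.38) were called in heart at 48 h. Of 7 TGF-beta pathway genes Tgfb2 (1.13 ± 0.34) was called there, and of 10 matrix receptor genes 0 were, with Itgb1 (0.57 ± 0.17, adjusted p = 0.0467) below 2-fold. The laminin and basement membrane list had 0 of 7 called in heart at either time. In other organs at TcMax some genes of these lists were called as lower. They were Agrn of the basement membrane list (-1.22 ± 0.11) and the protease Adamts7 (-1.10 ± 0.16) in liver, and the protease Adamts15 (-1.52 ± 0.28) in lung. The protease Adamts9 (1.83 ± 0.18) was called as higher in lung. The calls of these lists in heart at 48 h come from the same fit as the 10 member calls. They were not followed without single arrays or in other settings. Several were near the limit (adjusted p of 0.0446 for Tgfb2, 0.0397 for Ccn2, 0.0381 for Vcan and 0.0269 for Lox, by limma).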

How the data were processed

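The authors summarised the arrays with iterPLIER for each organ apart in Affymetrix Expression Console 1.1, as their methods and the labels say, and the deposited values are intensities on a linear scale before any offset. Here the methods' offset of 16 was added and log2 taken, the more variable 50% of IDs of an organ (by SD, after the methods) were tested, and heated minus control was fitted with limma 3.58.1 in R 4.3.3 over the 6 groups of an organ (2-fold, Benjamini-Hochberg adjusted p under 0.05 over 14607 IDs). Organs were compared by limma on differences within rats that had an array of both organs, and times by contrasts within an organ. Of 140 arrays, 139 were used. The limma p-values measure the spread between rats, with 1 spread per ID shared by the 6 groups of an organ. Where a group spread more than the others, as heated hearts did at 48 h, its SE rests partly on the tighter groups.

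The members and gene lists were chosen with earlier results of these data known. IDs with several genes (962) took no name, and probes of similar collagen genes may share signal. Named members are those called, those that passed with the groups apart and every member outside the collagens. From other lists up to 4 called genes of a list were named in a comparison. Timp1 at 24 h and Adamts1 in kidney, and the motifs TATAAA and CCAAT, were followed after values had been seen. The labels do not give injury status, so no such subgroup was formed. Alternatives were all IDs, a filter on dim IDs, an offset of 1, quantile normalization, only the 2 groups, ordinary variances, array weights, blocks on replicate number or tag prefix, no fold minimum and each array left out. Steps were tested on simulated data, and figures drawn with Python 3.11.15 and matplotlib 3.10.9.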

Additional observations from a re-analysis of the deposited data

Results flagged for a closer look

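The response to heating of 7 members differed between organs at TcMax by limma on the organs of the same rats, where between 1.35% and 8.67% of all tested IDs differed in these pairs of organs. Col10a1 and Col4a5 were higher in heart than in liver by 0.92 and 0.87, Col17a1 was higher in heart than in kidney by 0.83, and Adamts1 was higher in heart than in lung by 1.13. Relative to lung, Col4a3 in liver was at -0.66, Col4a4 in liver at -0.81, Lamb1 in liver at 0.65 and Col4a3 in kidney at -0.60. Some members were dim in an organ of the pair, such as Col17a1 in heart (mean 29.0) and Col4a3 in liver (mean 20.6).

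The response differed between times in the organ fits. In heart Adamts1 at 24 h and 48 h relative to TcMax was at -1.27 and -1.28, while Col8a1, Fbn1 and Mmp14 at 48 h relative to TcMax were at 1.67, 1.38 and 1.20. In liver Col11a2 at 24 h was at -0.49 relative to TcMax, and Mmp14 was at 0.62 at 24 h and 0.76 at 48 h. In kidney Col17a1 at 24 h was at 1.14 and Mmp14 at 48 h at 0.71. In lung Col4a3 was at -0.69 at 24 h and -0.87 at 48 h, Col4a4 at -0.55 at 48 h, and Mmp14 at 0.65 at 24 h and 0.74 at 48 h.

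The heated heart array at 48 h that was left out had a lung epithelium marker sum of 44255, against 66.7 to 315 in the control hearts of that time.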

How the results depend on the processing

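Adamts1 in heart at TcMax kept its call in all 11 fits without 1 array and all 11 other settings, and the single calls of Col4a3, Col4a4, Col17a1 and of Mmp14 in lung and kidney kept theirs. The 10 calls in heart at 48 h became 0 with only the 2 groups fitted and 0 with array weights, and lay between 0 and 13 with 1 array left out, for which the cause was not tested. Heart at 24 h had 1 call (Timp1) with only the 2 groups and 1 with array weights. The count of 4 differences between 48 h and TcMax in heart became 1 with array weights. The 1 call in liver at TcMax became 3 with an offset of 1, 0 with quantile normalization, 0 with array weights, 10 with no fold minimum and 0 to 2 with 1 array left out. Liver at 24 h had 1 call (Timp3) with array weights and 0 to 1 with 1 array left out. With no fold minimum there were 3 calls in kidney and 4 in lung at TcMax. The 2 differences between heart and liver at TcMax became 1 with all IDs tested, 1 with the filter on dim IDs and 1 with an offset of 1, and the 1 between heart and kidney became 0 with an offset of 1. With 1 array left out the other counts of calls stayed at their values (1 to 1 in heart at TcMax, otherwise 0 to 0). Single members' results kept their side in 280 fits without 1 array and lost it in 101, gained it in 1, and did so in 264, 69 and 4 of the other settings, with 0 reversed.

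Rats with the same replicate number did not vary together in every pair of any comparison (correlations from -0.30 to 0.40 in heart at TcMax and -0.15 to 0.47 in heart at 48 h), so the numbers were not taken to pair samples. With a replicate block heart at 48 h had 10 calls, and no count moved past 1.5 times. The median of all IDs in liver at TcMax was -0.04 in the main fit, -0.07 with an offset of 1 and -0.0006 with quantile normalization. In kidney at 24 h these medians were -0.03, -0.04 and 0.01. Dim members such as Col10a1 in liver, and 5 or 6 arrays a group, limit what can be told apart.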
